A study of Danio rerio with 8 samples.

Results

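Amino acid transporters of the solute carrier (slc) families 1, 3, 6, 7, 36, 38 and 43 were followed across sorted endocrine cells of the zebrafish pancreas at 30 days post fertilization. Members were the rows of the deposited gene table whose name begins with slc, one of those family numbers and a member number. The rule found 84 rows among 31953 zebrafish gene rows. It used gene names alone and no measured value. All fish carried the same pair of transgenes, Tg(ins:BB1.0L), driven by the insulin promoter, and TgBAC(sst1.1:memEGFP), in which the somatostatin gene sst1.1 drives a green membrane protein, and growth was given as normal. Cells were sorted by reporter into 3 groups, sst1.1+ins+ (positive for both, 3 libraries), ins+ (2 libraries) and sst1.1+ (3 libraries). RNA was turned into full-length cDNA by Smart-Seq2 and sequenced. Molecular identifiers are not mentioned, and neither is whether each library had its own fish, pool or sort. P-values here therefore rest on the library-to-library spread, part or all of which may be technical. In bulk libraries, fewer cells that use a gene and less RNA per cell cannot be told apart.

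Amino acid transporters are membrane proteins that carry amino acids across the cell surface or the membranes of lysosomes and vesicles. Some exchange 1 amino acid for another, some pull them in together with sodium or protons, and some only let them flow down their gradient. In endocrine cells amino acids feed hormone synthesis, signal nutrient supply through the kinase mTORC1, and, for arginine and other cationic amino acids in beta cells, help to trigger insulin secretion. Many members of family 7 are light chains, which carry the amino acid and are taken to the surface by a heavy chain of family 3, while its cationic amino acid carriers work without one. Family 6 also holds the carriers of the transmitters GABA, glycine, serotonin and dopamine. Not all 84 rows carry amino acids: slc7a6os is named for lying opposite slc7a6 and is no carrier, slc6a8 carries creatine, and slc43a3 of mammals carries nucleobases.

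The libraries held 24234927 to 24504469 gene counts in sst1.1+ins+, 16948429 to 19861081 in ins+ and 23425079 to 30374029 in sst1.1+. Insulin transcripts stood at 115462 to 130687 CPM (read counts relative to TMM-scaled library totals, the unit of all levels here) in sst1.1+ins+, 235511 and 256894 CPM in ins+ and 634 to 1276 in sst1.1+. The sst1.1 transcript stood at 156753 to 210063 CPM in sst1.1+ins+, 43252 and 54993 CPM in ins+ and 250852 to 298436 in sst1.1+, so both hormone transcripts were present in every library. Ins+ replicate 2 was the shallowest library, and its label has a track number that does not follow on from those of the other 7. Each call named below is therefore given with what happened to it when single libraries were left out.

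Of the 84 rows, 59 passed the low-count filter and were tested, 14 had no count in any library and 11 had too few. The highest count of an untested member in any library was 69. The counts carry no transcript length, so levels are compared between groups for 1 gene and never between genes. All 84 rows together took 0.286 to 0.307% of gene counts in sst1.1+ins+, 0.410 and 0.452% of those in ins+ and 0.230 to 0.291% in sst1.1+. The ins+ libraries lay above all others in this share, and they did so also with slc1a4, which supplied the most counts, taken out. The share was then 0.191 to 0.214% for sst1.1+ins+, 0.264 and 0.288% for ins+ and 0.156 to 0.179% for sst1.1+. The excess was not spread over all families. Summed CPM in ins+ lay above all other libraries in families 1, 7 and 43, below them in family 38, and overlapped in families 3, 6 and 36. For family 43 the sums were 622 to 714 CPM in sst1.1+ins+, 1169 and 1371 CPM in ins+ and 387 to 506 CPM in sst1.1+.

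Spread between libraries of a group differed with level. The 28 members with a mean of at least 5 CPM over all libraries had a median coefficient of variation of 22.8% in sst1.1+ins+, 20.9% in ins+ and 26.4% in sst1.1+. For the 31 tested members below that level, where they had counts in a group, it was 95.6, 141 and 90.8%. Ins+ has 2 libraries, and a gene with counts in a single one of them gets 141% whatever its level. That is the highest value possible there, so the 141% does not show a wider spread in ins+ than in the other groups. All transporter calls by edgeR with its default filter and all libraries fell among the 28. Other tools or filters also called some of the 31, as given below. The median standard error (SE) of the log2 fold change was 0.38 for the 28 and 2.30 for the 31 in ins+ against sst1.1+.

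In ins+ against sst1.1+, 8 of 59 tested members were called at an adjusted p under 0.05 (edgeR's quasi-likelihood test, Benjamini-Hochberg over all 16418 genes), 5 higher and 3 lower. Below, called, passed, rose and fell refer to this test unless another tool is named. The background over the whole table was 4.03%, made up of 1.61% higher and 2.42% lower. The called share of the members was 13.6%. In ins+ against sst1.1+, 2892 of the 16418 genes and 20 of the 59 members had an unadjusted p under 0.05. These numbers were 1296 and 9 in sst1.1+ins+ against sst1.1+, and 1981 and 12 in sst1.1+ins+ against ins+. The numbers over all genes are the background of the unadjusted counts below. The median log2 fold change of the 59 was 0.03, against -0.07 over all tested genes, with 30 members above 0 and 29 below. Libraries of the groups did not overlap for 23 of the 59 in ins+ against sst1.1+ (background 33.3%), for 10 in sst1.1+ins+ against sst1.1+ (background 14.7%) and for 18 in sst1.1+ins+ against ins+ (background 30.3%). The members thus moved in both directions, and the calls came from families 1, 7, 38 and 43.

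**Figure D1:**
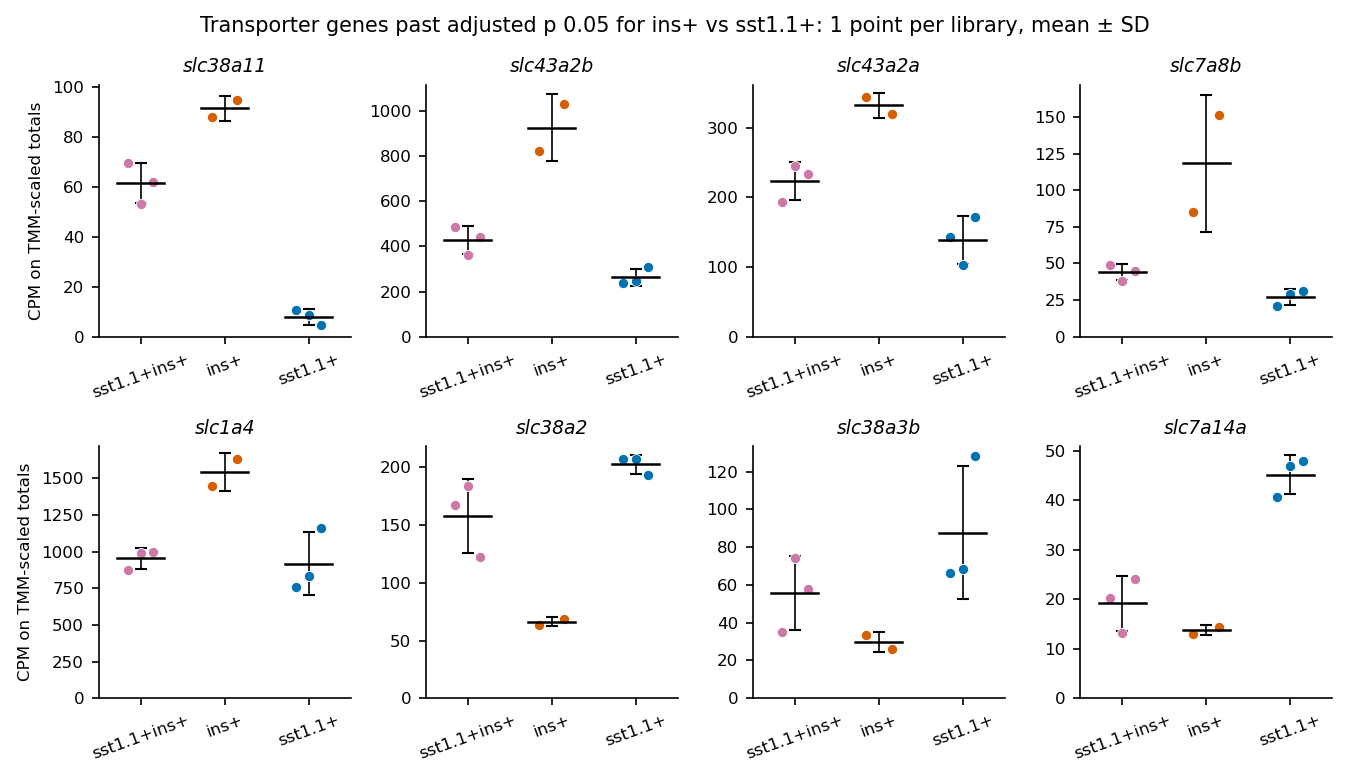
Levels in CPM (y axis, from 0, a separate scale for each gene) of the 8 transporter genes called in ins+ against sst1.1+, drawn as 1 point per library, a bar at the mean and whiskers of 1 SD, in the order sst1.1+ins+, ins+, sst1.1+. The ins+ points lie above all sst1.1+ points for slc38a11, slc43a2b, slc43a2a, slc7a8b and slc1a4 and below them for slc38a2, slc38a3b and slc7a14a.

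Genes for carriers of large neutral amino acids (leucine, isoleucine, methionine, phenylalanine) did not move as a group. In ins+ against sst1.1+, slc43a2b, slc43a2a and slc7a8b rose, while slc7a5, slc43a1a and slc43a1b did not pass and had lower means in ins+. The gene slc43a2b, 1 of a pair of zebrafish copies of LAT4, a carrier that lets these amino acids flow down their gradient without sodium, stood at 485, 361 and 439 CPM in sst1.1+ins+, 820 and 1030 CPM in ins+ and 236, 248 and 307 CPM in sst1.1+. The 3 groups did not overlap. It rose 3.51-fold in ins+ against sst1.1+ (log2 fold change 1.81 ± 0.18 SE, adjusted p = 0.000155), a call held in all 17 alternatives. The other copy, slc43a2a, stood at 193, 245 and 233 CPM in sst1.1+ins+, 344 and 319 CPM in ins+ and 143, 103 and 172 CPM in sst1.1+. Again all sst1.1+ins+ libraries lay between those of the single-positive groups. It rose 2.38-fold in ins+ (1.25 ± 0.21, adjusted p = 0.00540), also held in all 17.

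A further neutral amino acid carrier, slc7a8b (LAT2, a light chain that exchanges amino acids and needs a heavy chain of family 3), stood at 49.0, 38.1 and 45.0 CPM in sst1.1+ins+, 85.4 and 151 CPM in ins+ and 21.0, 29.0 and 31.2 CPM in sst1.1+. It rose 4.37-fold in ins+ (2.13 ± 0.28, adjusted p = 0.00117, held in all 17 alternatives), although the 2 ins+ libraries differed widely. A second row, SLC7A8 (1 of 2), had counts only in ins+ replicate 1 and in 2 sst1.1+ libraries, of 30 to 33 counts each. The names table gives slc7a8b as the symbol of this second row and SLC7A8 as that of the called row, so which zebrafish copy the rise belongs to depends on the annotation.

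The heavy chain genes themselves passed in no comparison by edgeR with its default filter and all libraries. In ins+ against sst1.1+, 2 of the 4 family 3 genes had an unadjusted p under 0.05, and DESeq2 called 1, slc3a2a (adjusted p = 0.0166). In that comparison edgeR also called slc3a2a without a low-count filter (adjusted p = 0.0146) and without sst1.1+ins+ replicate 2 (adjusted p = 0.0434). The gene slc3a2a (CD98) stood at 113, 189 and 133 CPM in sst1.1+ins+, 162 and 176 CPM in ins+ and 85.2, 106 and 106 CPM in sst1.1+ (ins+ against sst1.1+ 0.77 ± 0.22, adjusted p = 0.0831). Both ins+ libraries lay above all sst1.1+ libraries. The gene slc3a2b stood at 234, 186 and 185 CPM in sst1.1+ins+, 194 and 275 CPM in ins+ and 177, 172 and 134 CPM in sst1.1+ (0.54 ± 0.20, adjusted p = 0.182). One more row, SLC3A2 (3 of 3), stayed at 1.64 CPM or less in every library.

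Other light chains did not pass by edgeR. The gene slc7a7, whose product in mammals exchanges cationic for neutral amino acids, ranged from 24.4 to 89.7 CPM in sst1.1+ins+, stood at 108 and 84.6 CPM in ins+ and ranged from 30.1 to 82.4 CPM in sst1.1+ (adjusted p = 0.461 for ins+ against sst1.1+). Its ins+ values lay above all sst1.1+ values. In sst1.1+ins+ against ins+ slc7a7 did not pass (adjusted p = 0.468) and was called by edgeR without a low-count filter (adjusted p = 0.0333). The leucine carrier gene slc7a5 (LAT1) had 30 to 52 counts per library in sst1.1+ins+, none in either ins+ library and 17 to 66 in sst1.1+. Against a floor of 3 counts per library, ins+ was at least 8.47-fold lower than sst1.1+ and sst1.1+ins+ at least 10.6-fold higher than ins+, and neither difference passed by edgeR (adjusted p = 0.111 and 0.193), while DESeq2 called both (adjusted p = 0.00871 and 0.0108). The cystine carrier row SLC7A11 had no count in any library, which at the floor allows levels up to 0.176 CPM in the shallowest library. The kidney and gut pair slc7a9 and slc3a1 stayed at 2.15 CPM or less everywhere.

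The neutral amino acid exchanger slc1a4 (ASCT1, for alanine, serine, cysteine and threonine) stood at 873, 993 and 1000 CPM in sst1.1+ins+, 1449 and 1633 CPM in ins+ and 759, 830 and 1160 CPM in sst1.1+. Both ins+ libraries lay above all others, while the sst1.1+ins+ libraries fell inside the range of sst1.1+. It rose 1.68-fold in ins+ against sst1.1+ (0.75 ± 0.18, adjusted p = 0.0363). This call was lost in 8 of 17 alternatives, when only both groups were fitted and without any 1 of the sst1.1+ins+ libraries, either ins+ library, or sst1.1+ replicate 1 or 2 (adjusted p of 0.0523 to 0.203). Its relative SLC1A5 (ASCT2, a glutamine exchanger) had 11 to 92 counts in the sst1.1+ins+ libraries, 1 and 0 counts in ins+ and 70 to 110 counts in sst1.1+, and did not pass by edgeR in ins+ against sst1.1+ (adjusted p = 0.0741). DESeq2 called SLC1A5 in ins+ against sst1.1+ (adjusted p = 0.00346) and in sst1.1+ins+ against ins+ (adjusted p = 0.0215).

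Family 38, the sodium-coupled neutral amino acid transporters, held calls in both directions. The gene slc38a11, one of the least studied members of the family, stood at 69.5, 53.2 and 62.3 CPM in sst1.1+ins+, 88.1 and 95.1 CPM in ins+ and 10.6, 8.77 and 4.59 CPM in sst1.1+. Levels of both insulin-positive groups lay well above every sst1.1+ library. It rose 11.4-fold in ins+ against sst1.1+ (3.52 ± 0.32, adjusted p = 8.45e-05), with log2 fold changes of 3.24 to 3.77 over the 17 alternatives and no call lost. A second row of that name, SLC38A11 (2 of 2), had no count in any library.

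The glutamine and alanine carrier slc38a2 (SNAT2, which mammalian cells raise when amino acids run short) moved the other way. It stood at 167, 184 and 122 CPM in sst1.1+ins+, 63.8 and 69.0 CPM in ins+ and 208, 208 and 193 CPM in sst1.1+. The 3 groups were apart from each other. It was 3.05-fold lower in ins+ than in sst1.1+ (-1.61 ± 0.20, adjusted p = 0.000878, held in all 17 alternatives). The glutamine carrier slc38a3b (SNAT3) stood at 35.2, 74.1 and 57.9 CPM in sst1.1+ins+, 33.7 and 26.2 CPM in ins+ and 66.5, 68.4 and 128 CPM in sst1.1+. Both ins+ libraries lay below all others, and the other groups overlapped. It was 2.93-fold lower in ins+ (-1.55 ± 0.37, adjusted p = 0.0409). This call was lost in 9 of 17 alternatives, namely limma-voom, the replicate block, a fit of both groups alone, and without sst1.1+ins+ replicate 3, either ins+ library or any 1 of the sst1.1+ libraries (adjusted p of 0.0539 to 0.213).

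The other family 38 members did not pass by edgeR, although other settings called 4 of them. The gene slc38a5b, whose product is needed for the growth of alpha cells when glucagon signalling is blocked in mice and zebrafish, stood at 49.7, 42.7 and 48.7 CPM in sst1.1+ins+, 52.5 and 18.9 CPM in ins+ and 52.7, 83.0 and 84.4 CPM in sst1.1+ (ins+ against sst1.1+ -1.04 ± 0.38, adjusted p = 0.172). It was called without a low-count filter (adjusted p = 0.0137) and without ins+ replicate 1 (log2 fold change -1.96, adjusted p = 0.0129). Its copy slc38a5a had 3 to 97 counts per library in sst1.1+ins+, none in ins+ and 77 to 90 in sst1.1+, so that ins+ was at least 19.7-fold lower than sst1.1+. This difference did not pass by edgeR (adjusted p = 0.0777) and was called by DESeq2 (adjusted p = 0.00123) and by edgeR without a low-count filter (adjusted p = 0.0309). The gene slc38a10 stood at 19.7 to 33.4 CPM in sst1.1+ins+, 46.6 and 52.4 CPM in ins+ and 17.4 to 27.7 CPM in sst1.1+ (1.19 ± 0.31, adjusted p = 0.0589). It was called in 6 of 17 alternatives, DESeq2, unscaled library totals, both other filters, the replicate block and without sst1.1+ replicate 3 (adjusted p of 0.0136 to 0.0438). The lysosomal arginine sensor slc38a9 stood at 0.453 to 1.70 CPM in sst1.1+ins+, 16.2 and 4.58 CPM in ins+ and 0.705 to 3.37 CPM in sst1.1+ (adjusted p = 0.247 for ins+ against sst1.1+). In sst1.1+ins+ against ins+ slc38a9 did not pass by edgeR (adjusted p = 0.202) and was called by DESeq2 (adjusted p = 0.0286). The lysosomal glutamine carrier slc38a7 overlapped in all comparisons.

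The remaining fall was that of slc7a14a, whose mammalian relative sits in lysosomes and resembles cationic amino acid carriers. It stood at 20.3, 13.2 and 24.04 CPM in sst1.1+ins+, 13.1 and 14.4 CPM in ins+ and 40.6, 46.9 and 47.9 CPM in sst1.1+. Both insulin-positive groups lay below all sst1.1+ libraries and overlapped each other. It was 3.28-fold lower in ins+ than in sst1.1+ (-1.71 ± 0.33, adjusted p = 0.0121), a call lost without either ins+ library (adjusted p of 0.0650 and 0.0658). The cationic amino acid carrier slc7a2 (CAT2) did not pass and overlapped between ins+ and sst1.1+: 298.6, 202 and 275 CPM in sst1.1+ins+, 339 and 307 CPM in ins+ and 164, 299 and 327 CPM in sst1.1+ (0.30 ± 0.26, adjusted p = 0.617). The related slc7a3a, slc7a4 and SLC7A1 (2 of 2) overlapped as well, with adjusted p of 0.610, 0.784 and 0.829. The row slc7a1 did not overlap, with 0 and 1 counts in ins+ and 14, 39 and 21 in sst1.1+. It did not pass either (adjusted p = 0.425).

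**Figure D2:**
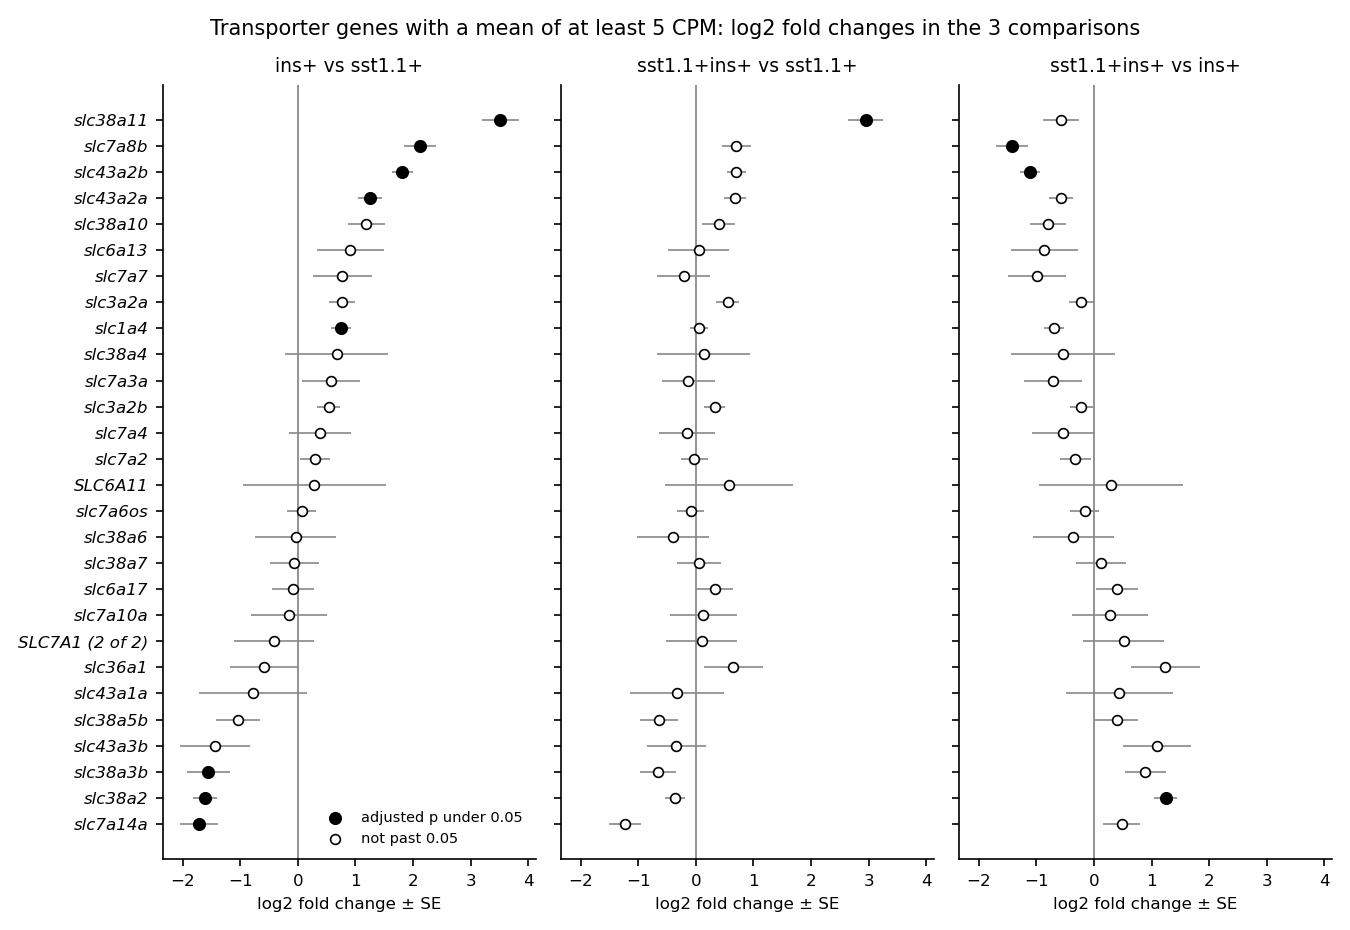
Log2 fold changes with SE (x axis, the same scale in each panel) of the 28 transporter genes with a mean of at least 5 CPM, ordered by ins+ vs sst1.1+, for the 3 comparisons; filled points passed an adjusted p of 0.05. In the middle panel slc38a11 at 2.95 is the only filled point, and in the right panel slc7a8b, slc43a2b and slc38a2 are filled.

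In sst1.1+ins+ against sst1.1+, 1 of 59 members was called, slc38a11, which was 7.70-fold higher in the double-positive cells (2.95 ± 0.30, adjusted p = 0.00138, held in all 17 alternatives). Over all genes tested, 0.207% were called in this comparison. The slc43a2 copies and slc7a8b stood at log2 fold changes of 0.70 ± 0.16, 0.69 ± 0.19 and 0.70 ± 0.25 (slc43a2b, slc43a2a and slc7a8b), each with sst1.1+ins+ libraries above all sst1.1+ libraries and none past the threshold by edgeR (adjusted p = 0.160, 0.277 and 0.522). DESeq2 and edgeR without a low-count filter called slc43a2b (adjusted p = 0.00210 and 0.00538) and slc43a2a (adjusted p = 0.0331 and 0.0309) in this comparison, and limma-voom called slc43a2b (adjusted p = 0.0295). The gene slc7a14a stood at -1.24 ± 0.28 (adjusted p = 0.146 by edgeR, 0.00702 by DESeq2 and 0.0256 without a low-count filter) and slc38a2 at -0.36 ± 0.17 (adjusted p = 0.645), again with no overlap. For slc1a4 the value was 0.06 ± 0.16. The median over the 59 was 0.07, against 0.00 over all genes. Of the 59, 9 members had an unadjusted p under 0.05, as did 1296 of all 16418 genes.

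In sst1.1+ins+ against ins+, 3 of 59 members were called, against 0.92% of all genes. The carrier slc38a2 was 2.38-fold higher in sst1.1+ins+ (1.25 ± 0.20, adjusted p = 0.0133), while slc43a2b was 2.16-fold lower (-1.11 ± 0.18, adjusted p = 0.0133) and slc7a8b 2.69-fold lower (-1.43 ± 0.28, adjusted p = 0.0358). Without ins+ replicate 2 none of the 3 was called. The slc38a2 call was also lost without sst1.1+ins+ replicate 1 or ins+ replicate 1 (adjusted p up to 0.0699), and that of slc43a2b without sst1.1+ins+ replicate 2 or 3 (adjusted p up to 0.126). The slc7a8b call was lost in 6 of 17 alternatives, with only both groups fitted or without any 1 of the sst1.1+ins+ libraries, ins+ replicate 2 or sst1.1+ replicate 2 (adjusted p up to 0.336). The exchanger slc1a4 did not pass (-0.69 ± 0.18, adjusted p = 0.116) and was called in 5 of 17 alternatives, among them DESeq2 and limma-voom (adjusted p = 0.00404 and 0.0126). The gene slc38a11 did not pass between the insulin-positive groups (-0.57 ± 0.30, adjusted p = 0.485), although its sst1.1+ins+ libraries lay below both ins+ libraries. The comparisons share libraries, so their values are set side by side and not tested against each other.

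For each of the 8 genes called between ins+ and sst1.1+, the fitted level of sst1.1+ins+ lay between those groups. With the log2 distance between them set to run from 0 at sst1.1+ to 1 at ins+, slc1a4 stood at 0.08, slc38a2 at 0.23, slc7a8b at 0.33, slc43a2b at 0.39, slc38a3b at 0.42, slc43a2a at 0.55, slc7a14a at 0.72 and slc38a11 at 0.84. The order of these fitted values thus ran from genes whose double-positive level was near that of sst1.1+ cells to those near that of ins+ cells. The positions are ratios of fold changes and have no error here, so neighbours in the order are not told apart. For slc1a4 the log2 fold change of sst1.1+ins+ against sst1.1+ was 0.06 ± 0.16 SE. Its place between the groups is therefore not told apart from the level of sst1.1+. Of the 662 genes called over the whole table, 623 or 94.1% were placed between as well. The median position of the 662 was 0.35, so lying between is no feature of the transporters.

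**Figure D3:**
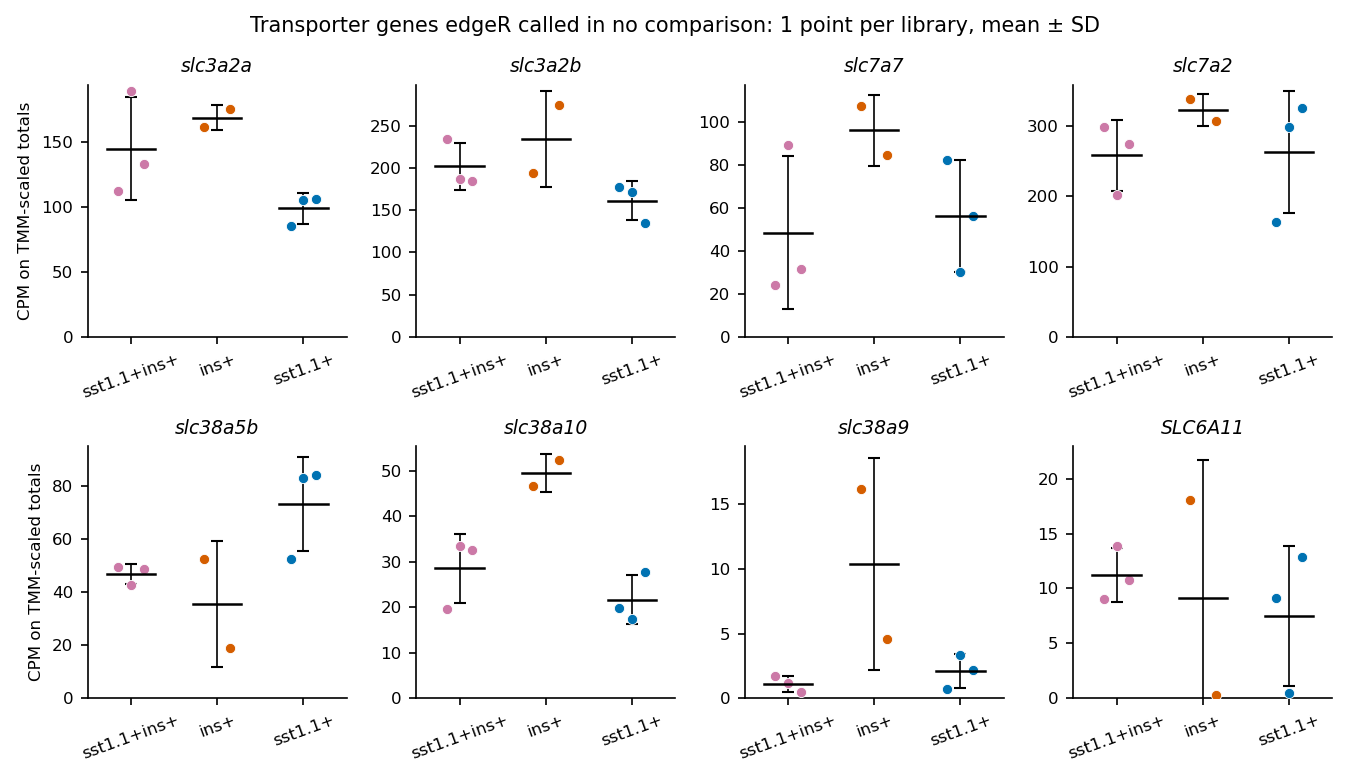
Levels in CPM (y axis, from 0, a separate scale for each gene) of 8 transporter genes, with 1 point per library, a bar at the mean and whiskers of 1 SD, in the order sst1.1+ins+, ins+, sst1.1+. By edgeR with its default filter and all libraries, none of the 8 was called in any comparison. Both heavy chain genes, slc3a2a and slc3a2b, have ins+ points above all sst1.1+ points, and SLC6A11 shows libraries near 0 beside libraries above 9 CPM in ins+ and in sst1.1+.

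Carriers of transmitters were low or uneven, and 0 of 14 tested family 6 members were called in any comparison by edgeR, with 0 at an unadjusted p under 0.05 and 0 called by DESeq2 or limma-voom. The vesicle carrier of neutral amino acids slc6a17 ranged from 37.1 to 87.4 CPM in sst1.1+ins+, stood at 40.7 and 43.02 CPM in ins+ and ranged from 33.1 to 57.0 CPM in sst1.1+ (lowest adjusted p 0.723, for sst1.1+ins+ against ins+). The row SLC6A11, a GABA carrier, stood at 9.05, 13.9 and 10.8 CPM in sst1.1+ins+, at 18.04 and 0.293 CPM in ins+ and at 9.17, 0.487 and 12.9 CPM in sst1.1+, so that libraries of 1 group differed by more than the groups did. The row slc6a13, a further GABA carrier by name and listed as slc6a22.1 in the names table, stood at 6.03 to 17.9 CPM in sst1.1+ins+, 20.03 and 18.4 CPM in ins+ and 5.67 to 17.2 CPM in sst1.1+ (adjusted p = 0.451 for ins+ against sst1.1+). The neuronal GABA carrier genes slc6a1a and slc6a1b had 1 and 0 counts over all libraries together. The glycine carrier slc6a9 ranged from 0.426 to 8.15 CPM in sst1.1+ins+, stood at 5.13 and 10.4 CPM in ins+ and ranged from 1.11 to 4.87 CPM in sst1.1+ (adjusted p = 0.606), and slc6a5 had counts in sst1.1+ replicates 2 and 3 alone, 8 and 5. The serotonin, noradrenaline and dopamine carriers slc6a4a, slc6a2 and SLC6A3 had at most 20 counts in any library.

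The glutamate carriers of family 1 were detected unevenly. The gene slc1a1 (EAAT3) stood at 0.387, 0 and 2.19 CPM in sst1.1+ins+, 1.84 and 10.6 CPM in ins+ and 0, 0.406 and 5.39 CPM in sst1.1+. The glial forms slc1a2b and slc1a3a reached at most 5.81 CPM and were each at 0 in at least 2 libraries, while slc1a2a had no count and slc1a3b had 5 counts in sst1.1+ replicate 1 alone. For slc1a1, slc1a2b and slc1a3a, libraries of 1 group differed by more than the group means did. The proton-coupled carriers slc36a1 and slc36a4 did not pass either, with sums of 13.5 to 22.2 CPM in sst1.1+ins+, 3.74 and 11.2 CPM in ins+ and 6.62 to 17.1 CPM in sst1.1+.

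A few further members passed in no comparison by edgeR with its default filter and all libraries. The gene slc43a3b stood at 24.8, 13.5 and 14.6 CPM in sst1.1+ins+, 2.89 and 13.6 CPM in ins+ and 24.8, 27.01 and 15.01 CPM in sst1.1+ (-1.44 for ins+ against sst1.1+, adjusted p = 0.244). The ins+ values lay below all sst1.1+ values, and slc43a3b was called without ins+ replicate 2 (adjusted p = 0.0383). The branched-chain carrier slc43a1a (LAT3) stood at 7.97, 2.46 and 7.46 CPM in sst1.1+ins+, 0.648 and 8.16 CPM in ins+ and 4.73, 8.895 and 8.875 CPM in sst1.1+, and slc38a4 had 15.2 and 0.998 CPM in the ins+ libraries, so that these libraries bracketed all others in slc38a4. The taurine carrier slc6a6a was at 1.36 to 4.25 CPM in sst1.1+ins+, 0 and 0.998 CPM in ins+ and 0.284 to 7.99 CPM in sst1.1+ (adjusted p = 0.420). Of the 59 tested members, 2 had counts in insulin-positive libraries and none in sst1.1+. The row slc7a10b had 90 counts in sst1.1+ins+ replicate 3 and 58 in ins+ replicate 1, and slc43a3a had 61 and 51 in sst1.1+ins+ replicates 1 and 3 and 31 in ins+ replicate 1, all other libraries being at 0 (adjusted p of 0.282 and 0.262 for ins+ against sst1.1+).

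Genes of amino acid use outside these families were taken from lists drawn up for amino acid carriers of other families, the amino acid response, mTORC1 sensing, aminoacyl-tRNA synthetases and amino acid or transmitter enzymes. Of 19 tested carriers of other families, 37 mTORC1 sensing genes and 21 cytosolic aminoacyl-tRNA synthetases, 0 were called in any comparison by edgeR. That holds for its default filter and all libraries. At an unadjusted p under 0.05 there were 4, 4 and 4 in ins+ against sst1.1+, where 2892 of all 16418 genes reached it. There were 1, 4 and 4 in sst1.1+ins+ against sst1.1+, beside 1296 of all genes. In sst1.1+ins+ against ins+ there were 4, 0 and 1, beside 1981 of all genes. DESeq2 called 2, 0 and 1 carriers of other families over these comparisons and none of the other genes, beside 1677, 272 and 775 over the whole table. Their median log2 fold changes for ins+ against sst1.1+ were -0.46, 0.20 and -0.41, and for sst1.1+ins+ against sst1.1+ they were 0.09, 0.15 and -0.40.

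Of 26 tested genes of the amino acid response, 2 rose and 2 fell in ins+ against sst1.1+ (1.61 and 2.42% over all genes). The rises were cbsb, the enzyme that joins homocysteine and serine (85.1 and 101 CPM in ins+ and 18.8, 17.3 and 11.3 CPM in sst1.1+, 5.89-fold, adjusted p = 0.000418), and the lipoprotein receptor gene vldlr (3.11-fold, adjusted p = 0.00316). The falls were cth, which takes the next step after cbsb towards cysteine (2.19 and 2.17 CPM in ins+ and 22.7, 20.5 and 16.3 CPM in sst1.1+, 9.06-fold lower, adjusted p = 0.00467), and the stress transcription factor gene ddit3 (5.18-fold lower, adjusted p = 0.000952). The enzyme genes for consecutive steps of the route from homocysteine to cysteine thus moved in opposite directions. The call of cth was lost with limma-voom (adjusted p = 0.0729) and the other calls in none of the 17 alternatives. The factor genes atf4a and atf4b and the asparagine synthetase gene asns did not pass (adjusted p = 0.391, 0.195 and 0.913). In sst1.1+ins+ against sst1.1+, 0 of the 26 passed by edgeR, with 7 at an unadjusted p under 0.05, 3 called by DESeq2 and 1 by limma-voom. Against ins+, ddit3 was 2.83-fold higher (adjusted p = 0.0352) and cbsb 2.66-fold lower (adjusted p = 0.0432), calls lost in 8 and 9 of 17 alternatives, among them the fits without ins+ replicate 1, ins+ replicate 2, sst1.1+ins+ replicate 1 or 2, and sst1.1+ replicate 1 or 2 (adjusted p up to 0.139 and 0.221).

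Of 30 tested enzymes of amino acids and transmitters, abat rose and arg2 fell in ins+ against sst1.1+ (rises 1.61% and falls 2.42% over all genes). The GABA-degrading enzyme abat averaged 27.9 ± 5.30 CPM in sst1.1+ins+, 58.1 ± 1.78 CPM in ins+ and 15.4 ± 2.02 CPM in sst1.1+ (SD, n = 3, 2 and 3), and ins+ was 3.76-fold above sst1.1+ (adjusted p = 0.00200). The mitochondrial arginase gene arg2 averaged 50.6 ± 8.60 CPM in sst1.1+ins+, 8.15 ± 3.48 CPM in ins+ and 102 ± 37.2 CPM in sst1.1+, and ins+ was 12.4-fold below sst1.1+ (adjusted p = 0.000431). Both calls held in all 17 alternatives. In sst1.1+ins+ against sst1.1+, 0 of the 30 passed by edgeR, with 4 at an unadjusted p under 0.05 and 0 called by DESeq2 or limma-voom. Against ins+ 2 rose, arg2 (6.19-fold, adjusted p = 0.00854, lost with limma-voom and without ins+ replicate 2, adjusted p up to 0.0966) and the glutamine synthetase gene glula. The gene glula averaged 259 ± 31.8 CPM in sst1.1+ins+ and 78.8 ± 46.7 CPM in ins+ (adjusted p = 0.0305). Its call was lost in 7 of 17 alternatives, when only both groups were fitted and without any 1 of the sst1.1+ins+ libraries, ins+ replicate 2, or sst1.1+ replicate 1 or 2 (adjusted p up to 0.115), and its log2 fold change of 1.72 became 2.503 without ins+ replicate 1.

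**Figure D4:**
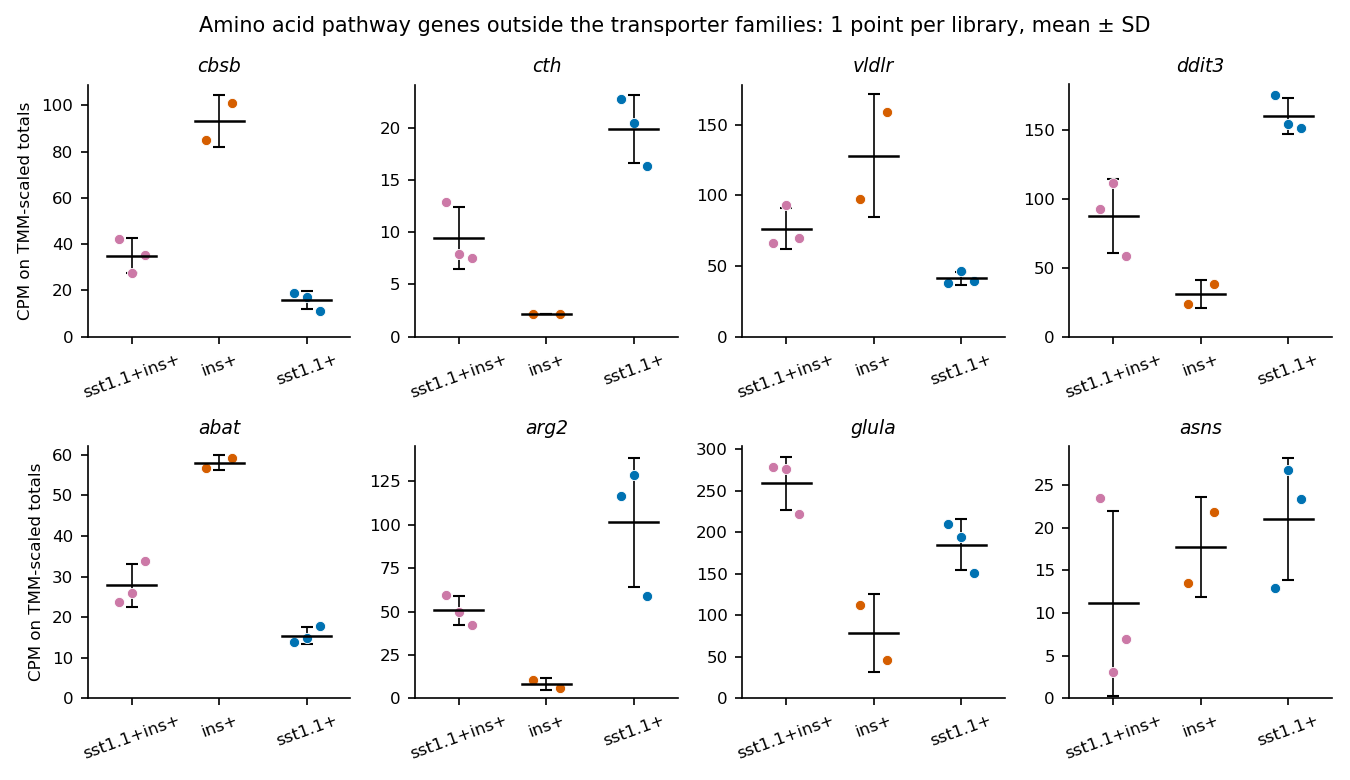
Levels in CPM (y axis, from 0, a separate scale for each gene) of the 7 called amino acid pathway genes outside the transporter families and of asns, which did not pass, with 1 point per library, a bar at the mean and whiskers of 1 SD, in the order sst1.1+ins+, ins+, sst1.1+. The ins+ points lie highest for cbsb, vldlr and abat and lowest for cth, ddit3, arg2 and glula.

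Other measures moved with the sort beside these genes. Among 30 tested genes of the immediate early and heat shock responses, ins+ against sst1.1+ had 20 falls, sst1.1+ins+ against sst1.1+ had 2 falls and sst1.1+ins+ against ins+ had 15 rises. Over all tested genes, 4.03, 0.207 and 0.92% were called in these comparisons, which is the background of the calls in this paragraph. Their summed level was 23186 to 27418 CPM in sst1.1+ins+, 9511 and 9742 CPM in ins+ and 35882 to 39456 CPM in sst1.1+. In their means slc38a2, slc38a3b, slc7a14a and arg2 had the same order of groups. Of the 662 genes called in ins+ against sst1.1+, 397 were lower in ins+. Among the 662, counting rises and falls alike, sst1.1+ins+ lay between for 94.1%. How many genes had this same order, highest in sst1.1+ and lowest in ins+, was not counted. Beta-cell markers rose for 4 of 12 tested genes in ins+ against sst1.1+. Alpha-cell markers fell for 2 of 7, with sums of 24463 to 34109 CPM in sst1.1+ins+, 11356 and 18666 CPM in ins+ and 33690 to 65975 CPM in sst1.1+. Delta-cell markers fell for 4 of 9, markers of other hormone cells for 1 of 4, ductal and epithelial markers for 2 of 9 and immune markers for 1 of 4 in that comparison, with immune sums of 55.8 to 126 CPM in sst1.1+ins+, 78.6 and 98.2 CPM in ins+ and 200 to 315 CPM in sst1.1+. Nearly all of the immune sum came from cd74a and cd74b, and the immune marker lcp1 was at 0 throughout. None of 14 acinar, 7 mesenchymal, 4 neuronal or 6 enterocyte and liver markers was called in any comparison by edgeR. Of these 31 markers, 6, 4 and 5 had an unadjusted p under 0.05 in the comparisons of ins+ with sst1.1+, sst1.1+ins+ with sst1.1+ and sst1.1+ins+ with ins+. Of all 16418 genes, 2892, 1296 and 1981 did. DESeq2 called 4, 1 and 2 of these markers, beside 1677, 272 and 775 of all genes. The 5 endothelial and 2 erythrocyte markers were too low to test. The share of ERCC spike-in counts was 0.0145 to 0.0236% in sst1.1+ins+, 0.0416 and 0.0501% of counts in ins+ and 0.0244 to 0.0348% in sst1.1+, highest in ins+. The part of these measures in the transporter results was not tested.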

How the data were processed

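The deposited table holds the authors' unnormalized counts, 1 row a gene. Trim Galore, HISAT2, featureCounts and the GRCz11 build are named, per the submitters' processing notes. Their versions, the gene annotation, strandedness and the handling of multi-mapped reads were not given in the sources used here. Near-identical copies and overlapping genes (such as slc7a6 and slc7a6os) may share counts that cannot be apportioned. The 92 ERCC rows and EGFP were kept out of totals and tests.

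Counts were fitted in R 4.3.3 with edgeR 4.0.16: default expression filter by group, TMM factors, a design with 1 coefficient for each sorted group fitted to all 8 libraries (residual degrees of freedom 5), quasi-likelihood F-test, Benjamini-Hochberg adjustment over 16418 genes at 0.05. SE was taken as the size of the log2 fold change over the root of F. Fold bounds use a floor of 3 counts per library (0.101 to 0.176 CPM, counting error only). The fit was also run on simulated data, with independent libraries and a spread estimated from these data, and the outcome is not given here. Such a run cannot show whether the libraries are technical replicates. The 17 alternatives were RLE, total-count and hormone-free scaling, DESeq2 1.42.0, limma-voom (limma 3.58.1), 2 other filters, fits of 2 groups, a replicate block and each library left out.

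Members and lists were chosen with earlier results of these data known. Named were all called members, the 12 with most counts, heterodimer partners, carriers of GABA, glycine and glutamate, and called genes of the amino acid lists, while stress and marker lists are given as counts; other members named were chosen after their values were seen. Of the 84 members, 83 had their identifier in the names table.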

Additional observations from a re-analysis of the deposited data

How the results depend on the processing

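No named call changed direction under any of the 17 alternatives, and 316 of 374 values of named calls kept both direction and call. Of 306 list counts, 258 stayed within 1.5 times or stayed at 0. The lists of other carriers, mTORC1 sensing and aminoacyl-tRNA synthetases had 0 calls in every comparison by edgeR. The 258 therefore say little about how steady the counts above 0 were. With DESeq2 the called transporters numbered 13 for ins+ against sst1.1+, 4 for sst1.1+ins+ against sst1.1+ and 8 for sst1.1+ins+ against ins+, beside 8, 1 and 3 by edgeR, and all genes called numbered 1677, 272 and 775, beside 662, 34 and 151. Without a low-count filter the last 2 transporter counts were 4 and 5, and all genes 1276, 229 and 560. For sst1.1+ins+ against sst1.1+, limma-voom called 2 transporters and 99 genes, and edgeR with a filter at a mean of 5 CPM called 61 genes. A fit of ins+ and sst1.1+ alone called 383 genes. For ins+ against sst1.1+, limma-voom called 353 genes higher and 262 lower, beside 265 and 397. The causes were not tested. With single libraries left out, called transporters ranged from 6 to 8 for ins+ against sst1.1+ and stayed at 1 for sst1.1+ins+ against sst1.1+. For sst1.1+ins+ against ins+ they ranged from 0 (without ins+ replicate 2) to 4, with 1 without any single sst1.1+ins+ library. All genes called ranged from 364 to 752 for ins+ against sst1.1+, with 364 without ins+ replicate 2 and 423 and 408 without sst1.1+ replicates 1 and 2. They ranged from 19 to 39 for sst1.1+ins+ against sst1.1+, with 21 and 19 without sst1.1+ins+ replicates 1 and 3. They ranged from 59 to 192 for sst1.1+ins+ against ins+, with 59, 90 and 75 without sst1.1+ins+ replicates 1, 2 and 3, 81 without ins+ replicate 2 and 94 without sst1.1+ replicate 2. Labels give no batch or pairing for replicate numbers. Deviations from the group means correlated at -0.03 to 0.01 for same-numbered libraries and at -0.04 to 0.04 for the other pairs between groups. Deviations within a group cancel, so with so few libraries these values cannot decide whether numbers were paired. With the replicate block 8, 1 and 4 transporters were called.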
